A study of Mus musculus with 8 samples.

Results

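The genes described here encode 40 nuclear receptors and hepatocyte transcription factors, listed by name: receptors for xenobiotics, sterols, bile acids, retinoids, fatty acids, thyroid hormone, vitamin D and steroids, their partners and orphan relatives, and the HNF4, FOXA, ONECUT, C/EBP and PROX factors that sustain hepatocyte identity. Probe sets annotated with a single symbol measured 39 of the 40, out of 18193 genes measured in all; Nr1h2, which encodes LXR beta, had no such probe set and was not analysed here. Liver RNA came from 8 young adult male mice, with 1 Affymetrix array per animal. The controls were 4 txnrd1cond/+;albCre0 mice (animals 70, 71, 80 and 82), which carry a conditional and a wild-type allele of txnrd1 and no Cre transgene. The experimental animals were 4 txnrd1cond/-;albCre1 mice (69, 72, 73 and 81), which carry the same conditional allele and a null allele. Here the albumin promoter drives Cre in hepatocytes and deletes the conditional allele, so that hepatocytes are txnrd1-/- while other liver cells keep it. Both groups were singly housed for 10 days and harvested at the same afternoon hour.

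Nuclear receptors are transcription factors that bind DNA directly, and many of them change activity when a small lipophilic ligand enters a pocket in the protein. Several of those acting in liver, including PXR, CAR, LXR, FXR, the PPARs, the retinoic acid receptors and the thyroid hormone receptors, bind DNA as a pair with a retinoid X receptor, and typically recognise repeats of the letters AGGTCA. Their activity is set largely by ligand, by partner proteins and by location in the cell, so the abundance of a receptor mRNA is not a measure of receptor activity. The Nr4a receptors differ: they act without a known natural ligand in their pocket, and their mRNAs are induced within minutes by many stimuli, as are those of Fos and Egr1.

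Promoters are shown for the member whose mRNA varied most between livers, Nr4a1, and for 3 members that bear on it: Nr4a2, its relative; Cebpb, whose highest livers were the same; and Onecut1, the next most variable member, for contrast. Each line gives the 250 bases upstream of the RefSeq start on GRCm38.p6, read 5′ to 3′ on the gene's strand, and capitals mark TGACG on either strand (CGTCA on the strand shown), the core of the cAMP response element. The intervals are chr15:101266596-101266845 on the plus strand for Nr4a1, chr2:57124004-57124253 on the minus strand for Nr4a2, chr2:167688665-167688914 on the plus strand for Cebpb and chr9:74861671-74861920 on the plus strand for Onecut1.
Nr4a1: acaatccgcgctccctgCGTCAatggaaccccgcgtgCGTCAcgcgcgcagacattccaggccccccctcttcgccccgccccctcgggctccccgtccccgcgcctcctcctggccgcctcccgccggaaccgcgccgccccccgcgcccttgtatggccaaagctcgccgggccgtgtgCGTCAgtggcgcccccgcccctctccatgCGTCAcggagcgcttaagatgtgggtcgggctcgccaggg
Nr4a2: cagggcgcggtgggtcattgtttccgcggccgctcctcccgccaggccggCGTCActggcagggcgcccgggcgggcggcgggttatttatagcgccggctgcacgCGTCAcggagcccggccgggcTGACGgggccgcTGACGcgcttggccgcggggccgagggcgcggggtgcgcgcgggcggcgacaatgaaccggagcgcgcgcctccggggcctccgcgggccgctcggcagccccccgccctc
Cebpb: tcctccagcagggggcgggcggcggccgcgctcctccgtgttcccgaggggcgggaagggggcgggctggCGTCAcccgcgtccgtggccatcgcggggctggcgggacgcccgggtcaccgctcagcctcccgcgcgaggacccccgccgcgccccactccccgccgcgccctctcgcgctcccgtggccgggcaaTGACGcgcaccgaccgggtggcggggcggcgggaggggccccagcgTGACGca
Onecut1: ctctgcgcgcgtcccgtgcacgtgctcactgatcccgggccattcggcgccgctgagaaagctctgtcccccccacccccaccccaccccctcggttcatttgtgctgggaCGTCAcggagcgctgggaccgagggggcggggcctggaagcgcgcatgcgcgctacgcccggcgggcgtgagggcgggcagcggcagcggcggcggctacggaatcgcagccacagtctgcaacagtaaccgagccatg

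RefSeq promoters were found for 37 of the 40 genes, 57 promoters in all. At least 3 matches to TGACG stood in 3 of these 57 (5.26%), those of Nr4a1 with 4, Nr4a2 with 4 and Cebpb with 3, against 226 of 32851 promoters of all genes (0.688%). The minimum of 3 was chosen with these counts known. Of the 10 immediate early genes with a promoter entry, 6 held a match and 1, Dusp1, held 3, while Jun, Ier3, Ier5 and Klf6 held 0. Any match stood in 11 of 57 (19.3%), against 17.8% of all promoters, and the Onecut1 promoter held 1. The full palindrome TGACGTCA, which contains TGACG, stood in 0 of the 57 (1.55% of all promoters). Searched on both strands, the receptor letters AGGTCA stood in 7 of 57 (12.3%, against 14.0%), in the promoters of Nr1h4, Nr5a2, Nr6a1, Rarg, Rxra, Rxrg and Thrb. The direct repeat of these letters with a spacer of 1 base, the DR1 element, stood in 0 of 57 and in 0.0335% of all promoters. A match describes letters in this window and is not evidence of binding.

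The deposited values were ratios scaled so that 1 is close to the middle value of a probe set among the 8 livers. They compare livers for an mRNA, and do not rank the mRNAs by abundance. For the same reason the array could not show whether hepatocyte markers were abundant; their mean log2 ratio lay between -0.09 and 0.08 in all 8 livers. Txnrd1 was read by 3 probe sets with log2 differences of 1.11, -0.71 and -0.41, none past adjustment. No source used here places them relative to the deleted part, and they did not check the labels. The bacterial and phage RNAs spiked in before hybridization were high on arrays 69, 70, 73 and 80 (mean log2 ratio 0.15 to 0.43 over 18 control probe sets) and low on arrays 71, 72, 81 and 82 (-0.51 to -0.19), with 2 livers of each genotype on each side. No source used here says what separated these sides.

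None of the 39 mRNAs was called as differing between txnrd1-/- and txnrd1cond/+ livers. In limma, 0 of 39 passed an adjusted p of 0.05 with a 1.5-fold difference, where 15 of all 18193 genes did (0.0824%; 0.077% as higher and 0.0055% as lower in txnrd1-/- livers). At an unadjusted p of 0.05, 0 of 39 passed, where 2.32% of all genes did (0.654% with a 1.5-fold difference as well). The genotype groups overlapped for each of the 39, and did not overlap for 1.71% of all genes. An exact 2-sided permutation test over the 70 possible splits, whose smallest p is 0.0286, can be passed at 0.05 only where the groups do not overlap. It therefore gave the same counts, 0 of 39 and 1.71% of all genes, and is not a further test. At shares this small, 0 of 39 does not set these mRNAs apart from all genes. All 39 differed by less than 1.5-fold. The log2 difference, txnrd1-/- minus txnrd1cond/+, ran from -0.47 to 0.47, with 14 mRNAs higher, 25 lower and a median of -0.03 (all genes, 0.00). The median size of the difference was 0.0705, against 0.0782 over all genes.

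**Figure D1:**
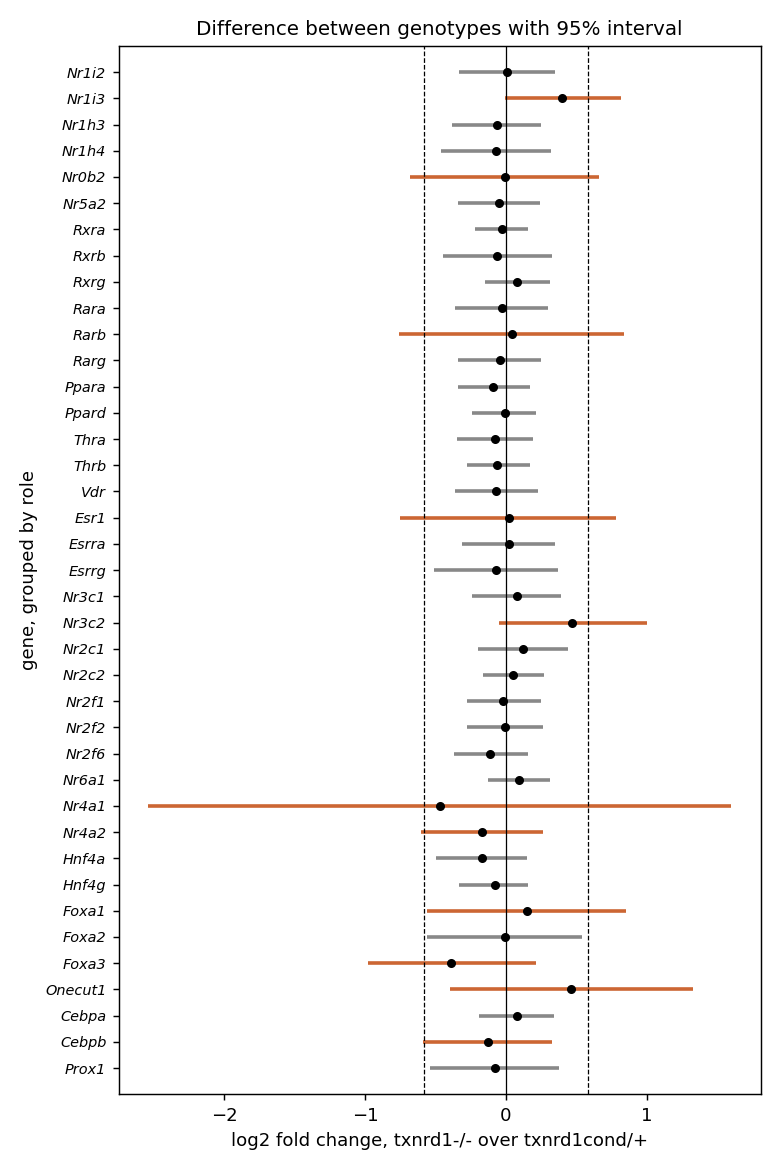
Log2 fold change of each measured mRNA (points; txnrd1-/- over txnrd1cond/+, 4 livers each) with its 95% interval from limma (bars), grouped by role; dashed lines mark 1.5-fold. All 39 points lie inside the dashed lines, and the 11 orange bars reach past them.

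A missed threshold does not show equal abundance, and the intervals set how much the averaged array ratio could have differed. They do not bound the mRNA itself. Without signals, an mRNA near background cannot be told from one that did not differ. Some intervals also belong to averages over probe sets that disagreed, such as Hnf4a (4 probe sets, -0.44 to 0.10) and Nr3c1 (6 probe sets, -0.24 to 0.31). For 28 of 39 mRNAs (71.8%, against 82.5% of all genes) the 95% interval lay wholly within 1.5-fold in either direction. Those 28 include PXR, LXR alpha, FXR, LRH-1, all 3 RXRs, PPAR alpha and delta, both thyroid hormone receptors, the glucocorticoid receptor, HNF4 alpha and gamma, C/EBP alpha and Foxa2. The other 11 were Nr1i3, Nr0b2, Rarb, Esr1, Nr3c2, Nr4a1, Nr4a2, Foxa1, Foxa3, Onecut1 and Cebpb, whose intervals do not exclude a difference of 1.5-fold or more.

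**Figure D2:**
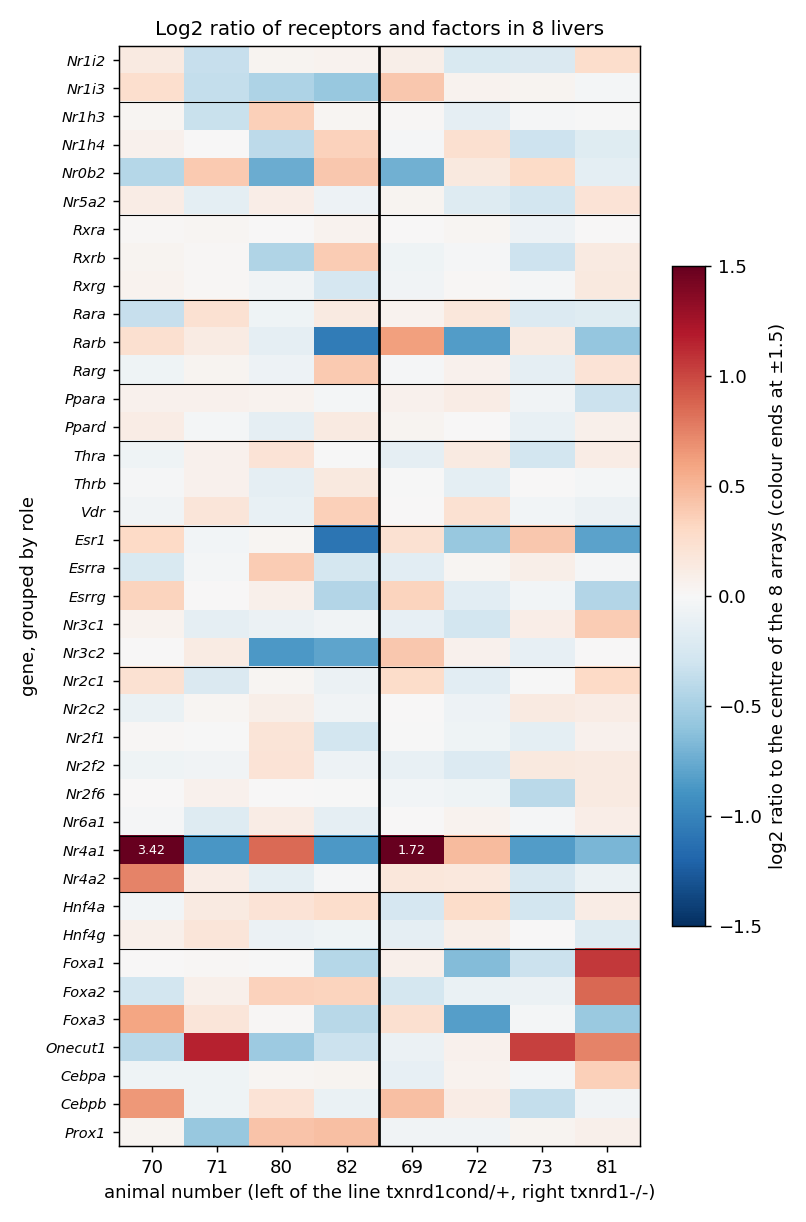
Log2 ratio of each measured mRNA (rows, grouped by role) in each liver (columns; 4 txnrd1cond/+ left, 4 txnrd1-/- right), with the colour ending at 1.5 and the 2 values beyond it printed. No row separates the genotypes, while Nr4a1, Esr1, Rarb, Foxa1, Foxa3 and Onecut1 vary from liver to liver.

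Of the xenobiotic receptors, Nr1i2 encodes PXR, which is activated by many drugs and steroids. Its log2 difference was 0.01 (SE 0.15, 95% interval -0.33 to 0.35). Nr1i3 encodes CAR, which enters the nucleus in response to phenobarbital-like compounds and switches on Cyp2b genes. The Nr1i3 ratio was 1.19, 0.779, 0.726 and 0.674 in txnrd1cond/+ livers 70, 71, 80 and 82, and 1.33, 1.04, 1.03 and 0.977 in txnrd1-/- livers 69, 72, 73 and 81. All 4 txnrd1-/- livers stood above 3 of the controls, and control 70 stood above 3 of the txnrd1-/- livers. The means were 0.843 ± 0.237 and 1.09 ± 0.161 (SD, n = 4 each). The log2 difference of 0.40 (SE 0.18, interval -0.01 to 0.82) had the smallest limma p of the 39, 0.055, with an adjusted p of 1.0 and an exact permutation p of 0.114. It was 0.33 among arrays with high hybridization controls and 0.47 among those with low ones. With the side of the controls as a block, its unadjusted limma p was 0.036, as for 3.05% of all genes below 0.05, and without control 70 the difference was 0.58 with an unadjusted p of 0.0023. Neither fit gave an adjusted p under 0.05; with the block, 0 of the 39 and 0.077% of all genes were called.

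The sterol and bile acid receptors were 4 measured mRNAs with log2 differences from -0.07 to -0.01. Nr1h3 encodes LXR alpha, the oxysterol receptor that drives cholesterol export and fatty acid synthesis, and differed by -0.06 (SE 0.14). Nr1h4 encodes the bile acid receptor FXR and differed by -0.07 (SE 0.17). Nr5a2 encodes LRH-1, an activator of bile acid synthesis genes, and differed by -0.05 (SE 0.13). Nr0b2 encodes SHP, a receptor without a DNA-binding domain that FXR induces and that represses LRH-1. Its ratio was 0.742, 1.31, 0.594 and 1.32 in the controls and 0.607, 1.11, 1.22 and 0.900 in txnrd1-/- livers, in the same order of animals. Both genotypes thus held livers near 0.6 and livers above 1.2, and the interval of the difference was -0.68 to 0.66. Among arrays with high hybridization controls the Nr0b2 difference was 0.38, and among those with low ones -0.40.

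Rxra, Rxrb and Rxrg encode the retinoid X receptors, the shared partners of most receptors above. Rxra was the steadiest of the 39 mRNAs, with ratios from 0.944 to 1.04 over the 8 livers. Its within-genotype SD was 0.04 on the log2 scale, rank 18166 of 18193 genes from the most variable. The gene value averages 3 probe sets whose liver-to-liver deviations ran opposite ways (pairwise r from -0.47 to -0.42 over 8 livers that share normalization), so part of this steadiness lies in the average. Rxrb differed by -0.06 (SE 0.17) and Rxrg by 0.08 (SE 0.10). Among the retinoic acid receptors, Rara differed by -0.03 (SE 0.15) and Rarg by -0.04 (SE 0.13), while Rarb varied between livers and is described below.

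Ppara encodes the fatty acid sensor that controls hepatic fatty acid oxidation, and Ppard its more widely expressed relative. They differed by -0.09 (SE 0.11) and -0.01 (SE 0.10). The thyroid hormone receptor mRNAs Thra and Thrb differed by -0.08 (SE 0.12) and -0.06 (SE 0.10), and the vitamin D receptor Vdr, which hepatocytes are known to express little of, by -0.07 (SE 0.13). None of these 5 intervals reached 1.5-fold.

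Nr3c1 encodes the glucocorticoid receptor and Nr3c2 the mineralocorticoid receptor, which binds aldosterone and glucocorticoids. Nr3c1 differed by 0.08 (SE 0.14), with its 6 probe sets between -0.24 and 0.31. The Nr3c2 ratio was 0.998, 1.09, 0.551 and 0.580 in txnrd1cond/+ livers and 1.32, 1.05, 0.921 and 1.00 in txnrd1-/- livers. Controls 80 and 82 were the 2 lowest livers, and controls 70 and 71 lay within the txnrd1-/- range. With means of 0.805 ± 0.279 and 1.08 ± 0.174 (SD, n = 4 each), Nr3c2 had the largest positive log2 difference of the 39, 0.47 (SE 0.23, interval -0.05 to 1.00; limma p = 0.073, adjusted p = 1.0; exact permutation p = 0.229). It was 0.57 and 0.37 on the sides with high and low hybridization controls. Without control 70 it was 0.60 with an unadjusted p of 0.036, and without control 71 it was 0.64 with an unadjusted p of 0.018. The estrogen-related receptors Esrra and Esrrg, regulators of mitochondrial genes, differed by 0.02 (SE 0.15) and -0.07 (SE 0.20).

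The orphan receptors Nr2c1, Nr2c2, Nr2f1, Nr2f2, Nr2f6 and Nr6a1 encode TR2, TR4, COUP-TFI, COUP-TFII, EAR2 and GCNF, proteins that often repress by competing for the same DNA repeats. Their 6 differences ran from -0.11 (Nr2f6) to 0.12 (Nr2c1), each with an interval inside 1.5-fold. Their within-genotype SDs ran from 0.09 for Nr2c2 to 0.21 for Nr2c1 (median of all genes, 0.20), and the low values of Nr2c2 and Nr6a1 average 6 and 5 probe sets of which some ran opposite ways (lowest pairwise r over the 8 livers -0.73 and -0.68).

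Hnf4a encodes HNF4 alpha, the receptor on which most hepatocyte-specific transcription depends. Its ratio was 0.973, 1.1, 1.15 and 1.2 in txnrd1cond/+ livers and 0.841, 1.22, 0.823 and 1.08 in txnrd1-/- livers. The 2 lowest values were txnrd1-/- livers 69 and 73 and the highest was txnrd1-/- liver 72. The log2 difference was -0.17 (SE 0.15, interval -0.50 to 0.15; exact permutation p = 0.286). Its 4 probe sets ran from -0.44 to 0.10. The lowest of them gave the only unadjusted limma p under 0.05 among the 95 probe sets of these genes, 0.035 (SE 0.18), where 1.82% of all probe sets fell below that p. None of the 95 passed adjustment with a 1.5-fold difference, where 0.0266% of all probe sets did (0.562% without the adjustment). Hnf4g differed by -0.08 (SE 0.11).

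The FOXA factors open chromatin at liver genes and are read here by 1 probe set each. Foxa3 had ratios of 1.51, 1.14, 1.02 and 0.747 in txnrd1cond/+ livers and 1.18, 0.564, 0.980 and 0.679 in txnrd1-/- livers. The 2 lowest livers were txnrd1-/- 72 and 81, and control 82 came next. The difference was -0.39 (SE 0.27, interval -0.98 to 0.21; limma p = 0.18; exact permutation p = 0.286), and -0.20 and -0.57 on the sides with high and low hybridization controls. Foxa1 lay between 0.993 and 1.01 in controls 70, 71 and 80, at 0.743 in control 82, and at 1.06, 0.637, 0.800 and 2.09 in txnrd1-/- livers. Foxa2 lay between 0.824 and 1.26 in the controls and at 0.833, 0.936, 0.942 and 1.82 in txnrd1-/- livers. Liver 81 was thus the highest for both Foxa1 and Foxa2 and the lowest but 1 for Foxa3. The differences were 0.15 (SE 0.32) for Foxa1 and -0.01 (SE 0.25) for Foxa2.

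Onecut1 encodes HNF6, which acts in liver and bile duct development and in the sex-biased and circadian programmes of the adult liver. Its ratio was 0.756, 2.24, 0.682 and 0.799 in txnrd1cond/+ livers and 0.942, 1.04, 2.04 and 1.67 in txnrd1-/- livers. Control 71 was the highest liver of all, and the other 3 controls were the 3 lowest. Both Onecut1 probe sets had livers 71, 73 and 81 highest (r = 0.83 over 8 livers), with log2 differences of 0.59 and 0.34. The gene difference was 0.46 (SE 0.39, interval -0.40 to 1.33; limma p = 0.26; exact permutation p = 0.314). Without control 71 it was 0.86 with an unadjusted limma p of 0.0095, which did not pass adjustment. Between arrays with high hybridization controls the Onecut1 difference was 0.95, and between those with low ones -0.02.

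Cebpa encodes the C/EBP family member most tied to hepatocyte differentiation, and its difference was 0.08 (SE 0.12) with ratios from 0.922 to 1.28. Prox1 encodes a homeodomain factor that partners HNF4 alpha and LRH-1, and its difference was -0.08 (SE 0.21). In txnrd1-/- livers the Prox1 average stayed between 0.967 and 1.06, and in the controls it was 1.03, 0.674, 1.35 and 1.36. It averages 3 probe sets of which some ran opposite ways (lowest pairwise r over the 8 livers -0.38). In txnrd1-/- liver 72 they stood at 0.982, 0.61 and 1.51, so part of the steadiness in txnrd1-/- livers lies in the average. Without control 71, the lowest, the Prox1 difference was -0.30 with an unadjusted limma p of 0.047 and no call after adjustment.

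Differences between animals of a genotype exceeded those between genotypes for several of these mRNAs. The median within-genotype SD was 0.216 on the log2 scale, against 0.20 for all genes, and Nr4a1 alone fell among the 1% most variable genes.

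**Figure D3:**
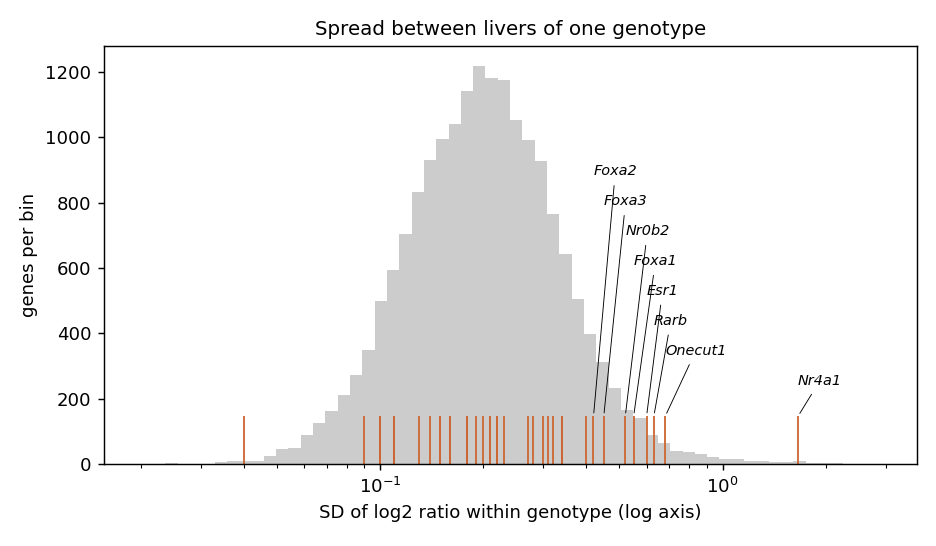
Within-genotype SD of the log2 ratio (log axis) for all genes (grey histogram, genes per bin) and for the 39 receptors and factors (orange ticks, the 8 largest named). Nr4a1 stands at 1.66, rank 21 of 18193, well apart from Onecut1 at 0.68.

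Nr4a1 encodes NUR77, an orphan receptor that promotes gluconeogenic genes after glucagon. Its ratio was 10.7, 0.549, 1.81 and 0.552 in txnrd1cond/+ livers 70, 71, 80 and 82, and 3.30, 1.38, 0.559 and 0.624 in txnrd1-/- livers 69, 72, 73 and 81. Livers 70 and 69, of different genotypes, were highest, and the range over the 8 livers was 19.5-fold. The SD of 1.66 ranked 21 of 18193 genes. It lay between 1.11, without liver 70, and 1.81 when each liver was left out in turn, and stayed the largest of the 39 each time. The log2 difference between genotypes of -0.47 (SE 0.93, interval -2.54 to 1.60; exact permutation p = 0.714) became 0.46 without liver 70.

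The same livers ranked high for immediate early genes, the class of transcripts that rise first after a stimulus. The mean log2 ratio over 13 such genes was 1.86, -0.79, 0.11 and -0.79 in the controls and 1.03, 0.20, -0.79 and -0.25 in txnrd1-/- livers. Liver 70 was the highest for 11 of the 13. Fos, which encodes a subunit of AP-1, ran from 22.2 in liver 70 and 9.99 in liver 69 to 0.233 in liver 82, a 95.2-fold range. Btg2, a growth-restraining early gene, had ratios of 7.10, 0.658, 1.84 and 0.474 in the controls and 2.80, 1.34, 0.649 and 0.374 in txnrd1-/- livers. Livers 69 and 70 were the 2 highest for 8 of the 13 genes (61.5%), for 7 of the 39 receptors and factors (17.9%) and for 5.9% of all genes. Those 7 were Nr1i3, Rarb, Esrrg, Nr4a1, Nr4a2, Foxa3 and Cebpb. The same held for 4 of 11 stellate cell markers (36.4%), 4 of 11 Kupffer cell markers (36.4%), 2 of 7 neutrophil markers (28.6%), 1 of 5 cholangiocyte markers, 1 of 10 endothelial markers, 0 of 8 hepatocyte markers and 4 of 11 glucocorticoid receptor targets (36.4%). Of the neutrophil markers, S100a8 stood at 4.38 in liver 70 and 2.77 in liver 69, and S100a9 at 3.81 and 2.15. The others measured, Ngp, Camp, Ltf, Mpo and Elane, lay between 0.788 and 1.36 in livers 70 and 69. The part of these cell types in the Nr4a1 and Cebpb values was not tested. The order of livers was chosen after the Nr4a1 values were seen and is a description.

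**Figure D4:**
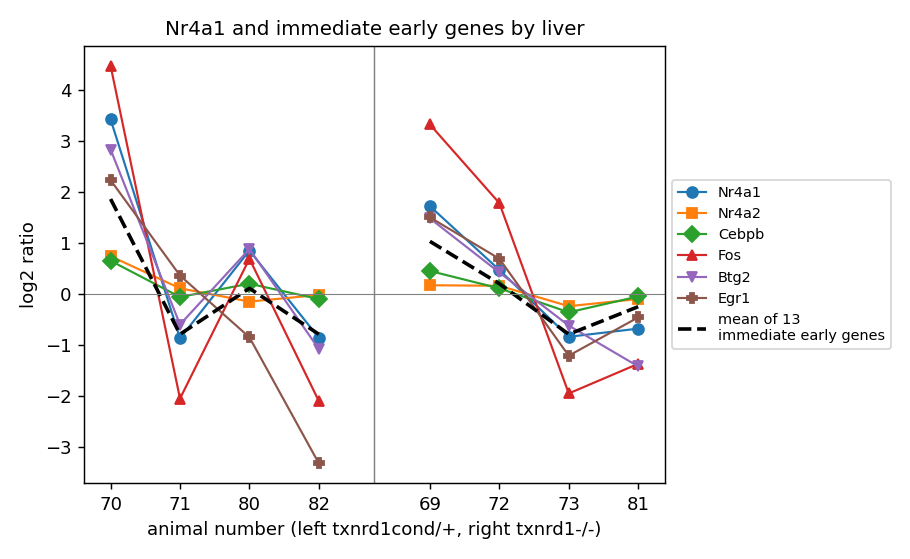
Log2 ratio in each liver (x axis, 4 txnrd1cond/+ left and 4 txnrd1-/- right) of Nr4a1, Nr4a2, Cebpb and 3 immediate early genes, with the mean of 13 immediate early genes dashed. Nr4a1 follows the dashed line, at 3.42 in liver 70 and 1.72 in liver 69, and Cebpb follows it over a narrower range.

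Cebpb encodes C/EBP beta, an acute-phase and gluconeogenic factor whose promoter is shown above. Its ratio was 1.56, 0.958, 1.15 and 0.931 in txnrd1cond/+ livers and 1.37, 1.08, 0.778 and 0.967 in txnrd1-/- livers, and its 2 probe sets had r = 0.92 over the 8 livers. The 3 highest livers, 70, 69 and 80, were also the 3 highest for Nr4a1, over a 2.01-fold range. The genotype difference was -0.13 (SE 0.21). Nr4a2, which encodes NURR1, was read by 6 probe sets that did not move together (pairwise r from -0.60 to 0.78). A single probe set stood at 7.77 in liver 70 and between 0.733 and 1.5 in the other 7, and another stood at 2.60 in liver 70. The remaining 4 lay between 0.852 and 1.37 there. Averaged, Nr4a2 was 1.67 in liver 70 and 0.848 to 1.12 elsewhere. No source used here says which Nr4a2 transcripts each probe set reads.

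Nr4a1 was also lower on arrays with low hybridization controls, by a log2 difference of -1.77 (SE 0.76) that did not pass adjustment, although liver 73, with the highest controls, was among its lowest. Between these sides, 9 of the 39 mRNAs (23.1%) had an unadjusted limma p under 0.05, against 16.2% of all genes, and 0 of all genes passed adjustment. Of the 9, 5 were lower on the low side, namely Esr1, Foxa3, Rarb, Esrrg and Nr4a1, and 4 were higher, namely Nr0b2, Hnf4a, Rxrb and Rarg. The part of hybridization in these differences was not tested. Within the sides, the genotype difference had opposite signs for 25 of the 39.

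Esr1 and Rarb ranked after Nr4a1 and Onecut1 in spread. Esr1 encodes estrogen receptor alpha, the main estrogen receptor of liver. Its ratio was 1.23, 0.971, 1.02 and 0.471 in txnrd1cond/+ livers and 1.17, 0.675, 1.32 and 0.574 in txnrd1-/- livers. Livers 82, 81 and 72 stood below all others, by all 3 probe sets except that the narrowest one placed 71 below 82. The genotype difference was 0.02 (SE 0.34, interval -0.75 to 0.78). Between the sides of the hybridization controls, low minus high, the Esr1 difference was -0.86 (SE 0.21) and did not pass adjustment.

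Rarb encodes retinoic acid receptor beta, itself a retinoic acid target, which hepatic stellate cells, the vitamin A-storing cells, are known to express. The Rarb ratio was 1.18, 1.09, 0.915 and 0.482 in txnrd1cond/+ livers and 1.53, 0.558, 1.10 and 0.668 in txnrd1-/- livers. The same 3 livers were lowest, over a 3.18-fold range, and the genotype difference was 0.04 (SE 0.36, interval -0.76 to 0.84). The 3 lowest livers were 72, 81 and 82 for 4 of the 39 mRNAs (10.3%; Rarb, Esr1, Esrrg and Foxa3) and for 3.66% of all genes. They were also the 3 lowest for 7 of 11 stellate cell markers (63.6%; Lrat, Reln, Col1a1, Col1a2, Col3a1, Lum and Rgs5). They were not for Des, Pdgfrb, Dcn and Acta2, and Des was highest in livers 82 and 72, at 1.33 in each. The same order held for 1 of 10 endothelial, 1 of 5 cholangiocyte, 0 of 11 Kupffer cell, 0 of 8 hepatocyte and 0 of 7 neutrophil markers. The mean log2 ratio of all 11 stellate cell markers ran from -0.42 to 0.24 in the controls and from -0.33 to 0.17 in txnrd1-/- livers, with 0 of 11 called between genotypes. By sign alone, 0 were higher and 11 lower in txnrd1-/- livers, with a median log2 difference of -0.11 (-0.27 to -0.02 when each liver was left out). Lrat, which esterifies retinol and defines these cells, was at 0.901 in liver 82, 0.564 in liver 72 and 0.941 in liver 81. Fewer cells of a type and less RNA per cell cannot be told apart in whole liver. The part of stellate cells in the Esr1, Rarb, Foxa3 and Esrrg values was not tested, and 3 of the 4 arrays with low hybridization controls were these 3 livers. Array 71, the lowest in those controls, had ratios of 0.971 for Esr1 and 1.09 for Rarb.

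**Figure D5:**
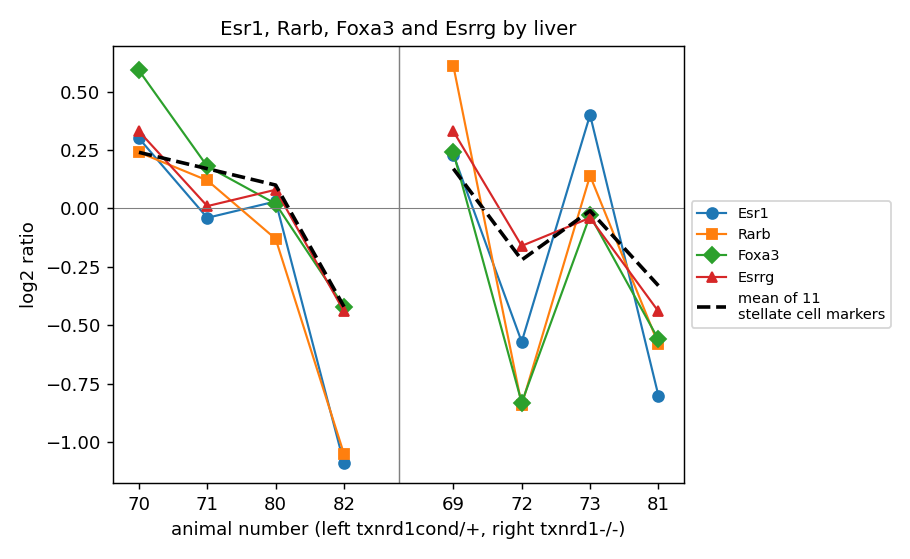
Log2 ratio of Esr1, Rarb, Foxa3 and Esrrg in each liver (x axis, 4 txnrd1cond/+ left and 4 txnrd1-/- right), with the mean of 11 stellate cell markers dashed. All 4 mRNAs and the dashed line are lowest in livers 82, 81 and 72, which belong to both genotypes.

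Other nuclear receptors and the genes these receptors act on were counted from lists. Of 12 other measured nuclear receptors 0 were called and 1 had an unadjusted limma p of at most 0.05, as did 2.32% of all genes. Pparg, the lipid storage receptor, stood at 0.641 to 0.863 in the controls and 1.13 to 1.68 in txnrd1-/- livers without overlap, 1.94-fold higher, but its adjusted limma p was 0.14. Of 17 other hepatocyte transcription factors 0 were called and 0 had an unadjusted p under 0.05, and of 18 coactivators and corepressors 0 were called and 1 had such a p.

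Beside the xenobiotic receptors, whose own mRNAs were not called, 1 of 13 PXR and CAR targets was called higher and 0 were called lower (all genes, 0.077% and 0.0055%). It was Abcc3, an exporter of conjugated bile acids and drugs, 3.09-fold higher (log2 SE 0.17, adjusted p = 0.0095), at 0.435 to 0.641 in the controls and 1.35 to 2.22 in txnrd1-/- livers. Without liver 73 its adjusted limma p was 0.054, and without any other animal it passed. At an unadjusted limma p of at most 0.05, 4 of the 13 were higher and 0 lower (all genes, 1.71% and 0.605%), namely Abcc2, Abcc3, Cyp2b10 and Cyp2b13. By sign alone, 8 were higher and 5 lower. The study picked Abcc3, Cyp2b10 and Cyp2b13 on these same samples, so they are not independent evidence for the list. Cyp2b13 had a log2 difference of 1.86 (SE 0.59) and Cyp2b10, the classical CAR target, of 0.71 (SE 0.23), both with adjusted p = 1.0. The list's median log2 difference was 0.52, against 0.00 over all genes, and 0.19 without control 82, whose mean log2 ratio over the list was -1.06 against -0.30 to 0.09 in the other controls.

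Among 12 LXR targets 0 were called higher and 1 was called lower. It was Scd1, the desaturase of fatty acid synthesis, 2.42-fold lower (log2 SE 0.17, adjusted p = 0.041), beside an Nr1h3 difference of -0.06. It passed without liver 80 and in none of the other 7 fits that left out an animal (adjusted limma p up to 0.22). Scd1, too, was picked by the study on these samples. Srebf1, which encodes the lipogenic factor that LXR induces, differed by -0.64 (SE 0.13) without overlap of the groups and did not pass adjustment (adjusted p = 0.36). At an unadjusted limma p of at most 0.05, 1 of the 12 LXR targets was higher and 3 were lower (all genes, 1.71% and 0.605%). Among 10 FXR and LRH-1 targets 0 were called. Cyp8b1, the sterol 12-hydroxylase and another of the study's picks, differed by 1.28 (SE 0.28) without overlap (adjusted p = 0.47), beside differences of -0.07 for Nr1h4 and -0.01 for Nr0b2. No gene was called among 12 PPAR alpha, 11 glucocorticoid receptor, 6 thyroid hormone receptor, 11 retinoid and 14 HNF4 alpha targets. Their medians were 0.09, -0.22, -0.05, -0.01 and 0.02; that of the glucocorticoid receptor targets ran from -0.31 to 0.00 when each liver was left out, and was 0.00 without liver 81. The mean log2 ratio of the glucocorticoid receptor targets was 0.72, -0.69, 0.52 and -0.63 in the controls and 0.55, 0.25, -0.40 and -0.61 in txnrd1-/- livers. As for Nr4a1, livers 70, 69 and 80 were highest. This mean does not describe each target: Mt2 ranged 15.8-fold over the livers, while Pck1 ranged 1.22-fold and Tat stood at 1.02 in liver 70 and 1.01 in liver 69. The target list shares Dusp1 with the immediate early genes. The Nr3c1 average stayed between 0.826 and 1.30. It averages 6 probe sets of which some ran opposite ways (lowest pairwise r -0.77), and the most variable of them ranged 4.03-fold. Of the markers of hepatocytes, endothelial cells, Kupffer cells, cholangiocytes and neutrophils, none was called between genotypes.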

How the data were processed

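Values were the series' processed table of 45101 probe sets on 8 arrays. The authors deposited linear ratios: per the labels RMA was used, and the methods name GeneSpring. The array medians lay between 0.997 and 0.999. No signal was kept, so the study's signal minimum and any depth could not be applied. Precision is limited by the number of arrays. Controls (64 probe sets) were left out, 5 empty values stayed empty, and genes were means of log2 ratios over probe sets with 1 symbol (34945; 932 with several and 9160 with none were not used for genes). Genotypes were compared with limma 3.58.1 in R 4.3.3 (lmFit and eBayes, 2-sided, 6 residual and 3.71 prior degrees of freedom), with Benjamini-Hochberg adjustment over all 18193 genes or 45037 probe sets. On simulated data, drawn as independent normal noise with the spread of each gene, limma called 8, 40, 49 and 50 of 50 genes changed 1.5-, 2-, 4- and 8-fold, with 3 false calls. Members and gene lists were chosen with earlier results of these data known. Values per animal are given for the 6 largest differences, the 4 largest SDs and any member with non-overlapping groups or an unadjusted p of at most 0.05; Nr0b2, Foxa1, Foxa2, Cebpb, Nr4a2, Prox1 and the orders of livers were added after their values were seen. Alternatives were other scalings, offsets, probe set rules, variance models, leaving out each animal and, added after seeing the data, the side of the hybridization controls as a block. Symbols and promoters came from RefSeq (GRCm38.p6). Figures used matplotlib 3.10.9 in Python 3.11.15.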

Additional observations from a re-analysis of the deposited data

Results flagged for a closer look

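Within a genotype, 4 of 78 groups of 4 livers held a liver set apart by Dixon's test. Its gap to the nearest neighbour, divided by the range of the group, exceeded the 95% critical value. Chance flags about 1 group in 20. Onecut1 stood at a log2 ratio of 1.16 in txnrd1cond/+ liver 71, with the other 3 controls between -0.55 and -0.32. Foxa2 stood at 0.86 in txnrd1-/- liver 81, against -0.26 to -0.09. Foxa1 stood at -0.43 in txnrd1cond/+ liver 82, against -0.01 to 0.02. Nr2f2 stood at 0.20 in txnrd1cond/+ liver 80, against -0.08 to -0.05.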

How the results depend on the processing

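The count of receptors and factors called after adjustment was 0 in each of 10 other settings and 8 fits that left out an animal. Counts at an unadjusted p under 0.05 moved: with the side of the hybridization controls as a block the count was 1 (Nr1i3), and without single animals it ran from 0 to 3, or from 0 to 2 with a 1.5-fold difference as well. No share of all genes is given for the fits without an animal, so their counts cannot be read against a background. For Nr1i3, Nr3c2, Onecut1 and Prox1 the control left out above lay against the difference, and leaving out such a liver by itself lowers p. The median log2 difference ran from -0.05 to 0.02 without single animals. Signs of small differences were less stable. With the probe set of largest variance for each gene, Nr5a2 became 0.01, Ppard 0.08, Nr3c1 -0.24 and Hnf4a 0.10. With array weights Rara became 0.02 and Esrra -0.01, and with quantile normalization Esr1 became -0.02. Leaving out each animal in turn reversed 24 of the 39, whose log2 differences then ranged as follows: Nr1i2 (-0.10 to 0.08), Nr1h3 (-0.18 to 0.05), Nr1h4 (-0.20 to 0.04), Nr0b2 (-0.23 to 0.19), Nr5a2 (-0.14 to 0.02), Rxrb (-0.21 to 0.07), Rara (-0.14 to 0.05), Rarb (-0.24 to 0.26), Rarg (-0.10 to 0.06), Ppard (-0.07 to 0.03), Vdr (-0.14 to 0.02), Esr1 (-0.28 to 0.22), Esrra (-0.06 to 0.16), Esrrg (-0.21 to 0.05), Nr3c1 (-0.04 to 0.17), Nr2f1 (-0.10 to 0.05), Nr2f2 (-0.06 to 0.06), Nr4a1 (-0.99 to 0.46), Nr4a2 (-0.28 to 0.02), Foxa1 (-0.19 to 0.38), Foxa2 (-0.26 to 0.11), Cebpa (-0.02 to 0.14), Cebpb (-0.27 to 0.03), and Prox1 (-0.30 to 0.04). The other 15 kept their sign. The causes were not tested. No paired analysis was possible because the labels do not pair animals across the genotypes. In the simulation most 1.5-fold changes were missed. A call itself needed an estimate of at least 1.5-fold, so these misses do not measure the number of arrays alone. Ratios without signals hide which mRNAs lay near background.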
